A study of Mus musculus with 6 samples.

Results

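The Klhl and Kbtbd genes encode adaptors of the cullin-3 ubiquitin ligase. Members were the rows of the deposited count table whose symbol is Klhl or Kbtbd followed by a number. There are 46 of them, 37 Klhl and 9 Kbtbd genes, among 24421 gene rows. RNA was sequenced from LK cells, bone marrow cells without lineage markers and with the receptor c-Kit, a gate that holds blood stem and progenitor cells. The C57BL/6 mice were 8 to 12 weeks old and were wild type or littermates with the genotype ASXL1-MT-KI (knock-in hereafter), which carry a mutant form of ASXL1. ASXL1 regulates chromatin and is often mutated in myeloid malignancies. Each genotype had 3 libraries, described as biologically independent experiments. The sources used here do not give whether a library was 1 animal, which ASXL1 mutation was knocked in, or which cells express it.

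Cullin-3 is a scaffold that holds the RING protein Rbx1, to which an ubiquitin-charged enzyme docks. A protein with a BTB domain binds cullin-3 at one end and the substrate at the other, so the adaptor decides what is marked with ubiquitin. In Klhl and Kbtbd proteins the substrate side is a propeller of kelch repeats. The ligase is switched on by attachment of the small protein Nedd8 and switched off by the COP9 signalosome, which removes it. The best known adaptor of this build, Keap1, keeps the antioxidant factor Nrf2 low.

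Libraries held 40462168 to 47579480 counts, and the members together took 0.0888% to 0.0984% of them. Asxl1 had 8077, 7793 and 6703 counts in the wild type libraries and 15525, 14763 and 12868 in knock-in, so every library stood on the side its label gives; counts per gene do not separate the knock-in allele from the endogenous gene. The progenitor markers Kit, Cd34, Mpo, Ctsg, Elane and Myb summed to 1.82e+04 to 2.01e+04 CPM (counts scaled to library size) in wild type and 1.88e+04 to 1.98e+04 in knock-in. Most of that sum was Mpo. Of these 6 markers 2 passed: Cd34 fell (log2 fold change -0.31, adjusted p = 0.00449) and Myb rose (0.20, adjusted p = 0.0174). Markers of other cells were also read. Of the T and NK markers, which summed to 165 to 181 CPM in wild type and 144 to 192 CPM in knock-in (0 of 2 tested passed), nearly all was Nkg7; Cd3g was at 0 in every library and Cd3e had at most 3 counts. The B lymphoid markers summed to 24.1 to 28.1 CPM in wild type and 22.6 to 26.6 CPM in knock-in, with 3 of 8 tested markers lower past the threshold. Most of that sum was Cd79b, at 16.2 to 18.9 CPM in wild type and 19 to 21.1 CPM in knock-in. Of the 8 tested, 7 had a negative log2 fold change and 1, Cd79b, a positive one, with a median of -1.09. The erythroid markers summed to 541 to 803 and 769 to 945 CPM, and the megakaryocyte markers to 296 to 340 and 233 to 311 CPM, with 1 of 8 tested erythroid markers higher and 2 of 6 tested megakaryocyte markers lower. The neutrophil and monocyte markers summed to 688 to 732 and 808 to 854 CPM (1 of 7 higher). Most of that sum was Ly6c2, the marker that passed, at 456 to 500 and 534 to 619 CPM. The mast cell, basophil and eosinophil markers summed to 676 to 752 and 372 to 676 CPM (0 of 7). The stroma and endothelium markers summed to 98.2 to 114 and 89.8 to 94.2 CPM (1 of 4 lower). Nearly all of that sum was Pecam1, the marker that passed, at 96.2 to 112 and 87.2 to 92.3 CPM. Log2 fold changes were positive in all 8 tested erythroid markers (median 0.45) and in 6 of 7 neutrophil and monocyte markers (0.27). They were negative in all 6 megakaryocyte (-0.18), all 7 mast cell, basophil and eosinophil (-0.39) and all 4 tested stroma and endothelium markers (-0.48). The part of these shifts in the results on Klhl and Kbtbd genes was not tested, and in bulk RNA fewer cells of a type and less RNA per cell cannot be told apart. Number 3 of both genotypes stood apart from the other libraries on the second principal component.

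A pair of members share sequence to a degree that touches their values. Kbtbd7 (chromosome 14, 79426511 to 79431036 in mm10) and Kbtbd6 (79451835 to 79454818), substrate adaptors that act together on the Rac activator Tiam1, are single-exon genes 20799 bases apart on the same strand. Their annotated transcripts hold an identical run of 536 bases. Among 990 pairs of the 45 members with annotated transcripts, no other pair shared even a run of 50 bases. Words of 124 bases, the length of a read, that occur in both genes make up 19.3% of those in Kbtbd6 and 12.6% of those in Kbtbd7. The sources used here do not say how reads that match both genes were counted. The first 124 bases of coding sequence are identical in both genes (chr14:79452056-79452179 in Kbtbd6 and chr14:79426730-79426853 in Kbtbd7, both on the plus strand, GENCODE M21 on GRCm38). No read inside them could be placed by its own sequence. Reads were paired, so a mate outside the shared run could place such a read. For that identity these bases are shown:
Kbtbd6 and Kbtbd7: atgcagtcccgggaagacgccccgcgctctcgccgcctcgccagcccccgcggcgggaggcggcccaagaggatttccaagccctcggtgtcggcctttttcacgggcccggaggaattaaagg

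Which adaptors LK cells transcribe was read per length, as CPM per kb of exon, in wild type cells. Klhl17, at 39.6 CPM in wild type, had no matched exon length, so it has no level per kb and no place in the order below. The level spanned from 33.8 for Klhl6 to 0 for Klhl1, Klhl14, Klhl31 and Klhl38. Klhl6, an adaptor known from germinal centre B cells and mutated in lymphomas, lies on chromosome 16 (19946496 to 19983037) and had 3942, 4038 and 3681 counts in wild type. Klhl9, which acts on Aurora B kinase in mitosis together with Klhl13, followed with 22.4 ± 0.50 CPM per kb (SD, n = 3). Its partner Klhl13 was at 0.0347 ± 0.0216 CPM per kb, on 3 to 10 counts a library. Next came Kbtbd2, which limits the PI3K subunit p85 alpha in insulin signalling, with 16.7 ± 0.589, Klhl5 with 14.2 ± 1.06 and Klhl21, another adaptor for Aurora B, with 12.2 ± 0.499 CPM per kb.

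The ranges of these first 5 members over the wild type libraries did not overlap between neighbours in the order, nor did those of Klhl24 and Kbtbd4 after them. Klhl23, Klhl7, Klhl11 and Klhl22, at 7.38, 7.24, 7.05 and 6.96 CPM per kb, could not be ordered, since each range overlapped the next. Klhl5 moved from the fourth to the second place when the longest transcript was taken as the length, with 27.8 in place of 14.2 CPM per kb. By that length Klhl22 moved from place 11 to place 7, above Klhl23, Klhl7 and Klhl11, with 11.2 in place of 6.96 CPM per kb. The median of the 35 tested members with a length was 2.75 CPM per kb, beside 5.98 for the 13018 tested genes with a length.

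**Figure D1:**
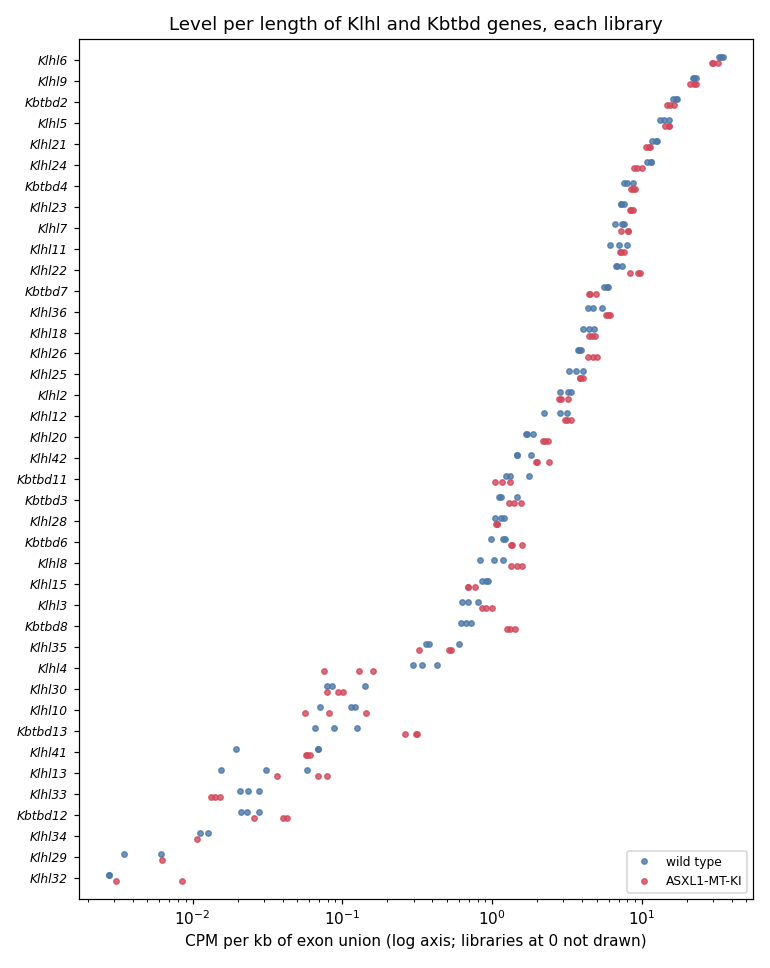
Level of each member per length in every library, as CPM per kb of exon union on a log axis, with genes ordered by their wild type mean. Blue points are the 3 wild type and red points the 3 knock-in libraries; Klhl6 is highest at 33.8 CPM per kb in wild type, and Kbtbd8, Kbtbd13 and Klhl4 are among the genes whose colours separate.

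A minimum on low counts left 36 members for the test and 10 without one. The latter include Klhl31, Klhl38, Klhl40 and Klhl41, known from striated muscle, where Klhl40 and Klhl41 stabilise the thin filament. Klhl1, Klhl31 and Klhl38 had no count in any library. Klhl41 had 2 to 8 counts a library and Klhl33 4 to 8. Klhl40 had 1, 2 and 3 counts in the wild type libraries and none in knock-in. Klhl14, Klhl29, Klhl32 and Klhl34 had at most 3 counts in any library.

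In knock-in cells 8 members rose and 3 fell, so 11 of 36 passed an adjusted p threshold of 0.05 (edgeR's quasi-likelihood test, adjusted over 13548 genes by Benjamini and Hochberg). Over all genes tested 16.0% passed, 8.29% as rises and 7.69% as falls. The risers were Kbtbd8, Kbtbd13, Klhl8, Klhl20, Klhl22, Klhl23, Klhl26 and Klhl42, and the fallers Kbtbd7, Klhl4 and Klhl24. The genotypes did not overlap in 17 members, with 11 higher and 6 lower in knock-in, beside 35.2% of all genes tested (18.0% higher and 17.2% lower). Before adjustment, 17 members had a p under 0.05, as did 30.4% of all genes. The median log2 fold change of the members was 0.09, and the median of its size without sign 0.22, against 0.00 and 0.13 over all genes. The summed level of the 46 members was 914, 929 and 965 CPM in wild type and 921, 958 and 959 CPM in knock-in, and these ranges overlapped.

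These counts moved with single libraries. The members that passed numbered 5 without wild type replicate 1 or knock-in replicate 1, and 6 without knock-in replicate 2, where 8.25%, 10.1% and 8.30% of all genes passed. They numbered 8 without wild type replicate 2 or knock-in replicate 3 (13.3% and 12.5% of all genes) and 11 without wild type replicate 3 (16.5%). Kbtbd8, Kbtbd13, Klhl4, Klhl20 and Klhl22 passed with any 1 of the 6 libraries left out. With the replicate number as a block, 11 members rose and 7 fell, while 30.5% of all genes passed (16.7% rose and 13.8% fell). With numbers 1 and 2 only, an alternative chosen after seeing the data, 7 rose and 4 fell (17.8% of all genes, 9.61% up and 8.21% down). With total counts in place of TMM scaling, 9 rose and 3 fell; over all genes 17.2% passed, and rises (11.5%) outnumbered falls (5.66%), with the median of all genes at 0.05. By other tools and filters 12 members passed with DESeq2 size factors (16.0% of all genes), 13 in DESeq2 (17.6%), 11 in limma-voom (16.0%), 10 without a filter (12.2%) and 10 at CPM 1 in 3 libraries (17.1%). At an adjusted p under 0.10, 15 members passed (23.0% of all genes).

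**Figure D2:**
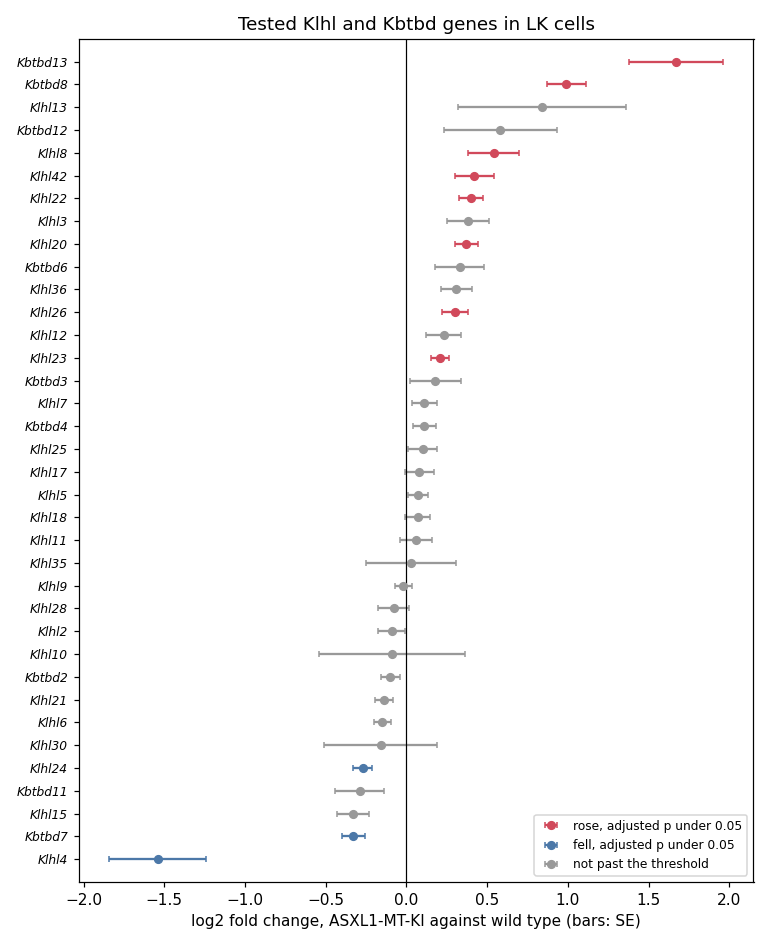
Log2 fold change of the 36 tested members, knock-in against wild type, with bars of 1 SE. Red marks the 8 that rose and blue the 3 that fell at an adjusted p under 0.05; Kbtbd13 lies farthest to the right at 1.67 and Klhl4 farthest to the left at -1.54.

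A change of at least 2-fold that passed was seen in Kbtbd13 and Klhl4, both weakly expressed. Kbtbd13, mutated in a congenital myopathy with nemaline rods and best known from muscle, lies on chromosome 9 (65388684 to 65391652). It had 9, 12 and 15 counts in wild type and 45, 35 and 38 in knock-in. Every knock-in library was above every wild type library in CPM (0.774 to 0.938 against 0.196 to 0.37). The log2 fold change was 1.67 ± 0.29 (SE; adjusted p = 0.00521), and the highest adjusted p with 1 library left out was 0.0316. With a minimum of CPM 1 in 3 libraries Kbtbd13 was not tested. Klhl4, an X-linked member (114474333 to 114560829), went the other way. It had 56, 49 and 62 counts in wild type and 13, 21 and 24 in knock-in, so the highest knock-in library was below the lowest wild type library. Its level was 1.27 ± 0.234 against 0.438 ± 0.156 CPM (SD, n = 3 each), a log2 fold change of -1.54 ± 0.30 (adjusted p = 0.00848).

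The 200 bases before the start of these genes are shown because no other member moved as far, with CG pairs, the sites of DNA methylation, in capitals (RefSeq, GRCm38.p6; chr9:65391653-65391852 on the minus strand and chrX:114474133-114474332 on the plus strand):
Kbtbd13: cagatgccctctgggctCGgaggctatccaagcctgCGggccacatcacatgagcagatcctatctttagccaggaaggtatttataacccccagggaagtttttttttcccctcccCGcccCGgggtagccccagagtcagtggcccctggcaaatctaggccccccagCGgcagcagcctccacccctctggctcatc
Klhl4: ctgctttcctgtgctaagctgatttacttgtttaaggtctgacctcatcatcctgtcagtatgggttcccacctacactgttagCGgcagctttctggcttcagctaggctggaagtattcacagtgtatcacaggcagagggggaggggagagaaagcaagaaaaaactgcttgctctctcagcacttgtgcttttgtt

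The Kbtbd13 stretch holds 5 CG pairs and the Klhl4 stretch 1. In the whole RefSeq window, 250 bases before to 50 after the start, Kbtbd13 had 9 and Klhl4 had 1, against a median of 22 over the 30 tested members with a window and 20 over 10185 tested genes. Of the 38 members with a window, the 8 that could not be tested had a median of 6.5. Klhl6, the highest per length, had 6, and Klhl2, with the most, had 54. The GC box (GGGCGG, either strand) was in 22 of the 30 windows of tested members (73.3%) and in 63.5% of those of tested genes. The E-box (CACGTG) was in 3 of the 30 (10%) and in 10.1%, and the ETS core (CCGGAAGT, either strand) in 4 (13.3%) and in 8.13%. These matches are descriptions of the sequence alone.

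Kbtbd8 had the lowest p of the members. This adaptor adds ubiquitin to the ribosome biogenesis factors Tcof1 and Nolc1 and is known from neural crest formation. On chromosome 6 (95117240 to 95129790) it had 156, 169 and 128 counts in wild type and 306, 302 and 301 in knock-in. The level was 3.41 ± 0.266 against 6.77 ± 0.447 CPM, and the lowest knock-in library was above the highest wild type library. The log2 fold change was 0.99 ± 0.12 (adjusted p = 9.45e-04; 0.00805 at most with 1 library left out).

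Klhl22 and Klhl20 were the better expressed of the risers that passed with any 1 library left out. Klhl22, which acts on the mitotic kinase Plk1 and on the mTORC1 inhibitor Depdc5 (chromosome 16, 17759618 to 17793382), was at 35.3, 38.5 and 35.6 CPM in wild type and at 49.4, 51.1 and 43.5 CPM in knock-in. All 3 knock-in libraries were above the wild type range, and the log2 fold change was 0.40 ± 0.074 (adjusted p = 0.00678). Klhl20, which targets the death kinase Dapk1 and the nuclear body protein Pml (chromosome 1, 161088375 to 161131511), was at 21.8, 21.9 and 24.2 CPM in wild type and at 28, 29.1 and 30.6 CPM in knock-in. Its log2 fold change was 0.37 ± 0.072 (adjusted p = 0.00839, and 0.0453 at most with 1 library left out).

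The other risers passed less firmly. In each the 3 knock-in libraries lay above the 3 wild type libraries, as they did for 18.0% of all genes tested. Klhl42, which targets the microtubule-severing protein katanin (chromosome 6, 147091379 to 147112778), was at 9.5, 9.42 and 11.7 CPM in wild type and at 12.7, 12.9 and 15.4 CPM in knock-in (log2 fold change 0.42 ± 0.12, adjusted p = 0.0378). Klhl8, linked to the receptor-clustering protein rapsyn (chromosome 5, 103861973 to 103911259), was at 2.88, 4.12 and 3.57 CPM and at 4.67, 5.55 and 5.11 CPM (0.54 ± 0.16, adjusted p = 0.0463). Both calls held without 1 library only, wild type replicate 3 for Klhl42 and wild type replicate 2 for Klhl8, and were lost without any of the other 5, with adjusted p up to 0.142 and 0.165. Without number 3 of both genotypes Klhl8 was at an adjusted p of 0.0799.

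Klhl26 (chromosome 8, 70450219 to 70476968) was at 11.9, 12.5 and 12.2 CPM in wild type and at 16.0, 15.2 and 14.0 CPM in knock-in (log2 fold change 0.30 ± 0.081, adjusted p = 0.0325). Leaving out number 1 or 2 of either genotype lost this call, with adjusted p up to 0.136. Klhl23 (chromosome 2, 69821944 to 69836651) was at 35.8, 37.2 and 36.0 CPM and at 41.9, 41.0 and 43.1 CPM (0.21 ± 0.056, adjusted p = 0.0332). That call was lost on leaving out any of the 6 libraries, with adjusted p from 0.0503 to 0.109, without a filter on low counts (0.0507) and with numbers 1 and 2 only (0.0811). Phospho2, the tested gene 21939 bases before Klhl23 and named here after its value was seen, also rose (0.28, adjusted p = 0.039). Of the 22 tested genes that lie next to a member that passed, 3 passed, 1 in the direction of the member and 2 in the other, a share near the 16.0% of all genes.

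**Figure D3:**
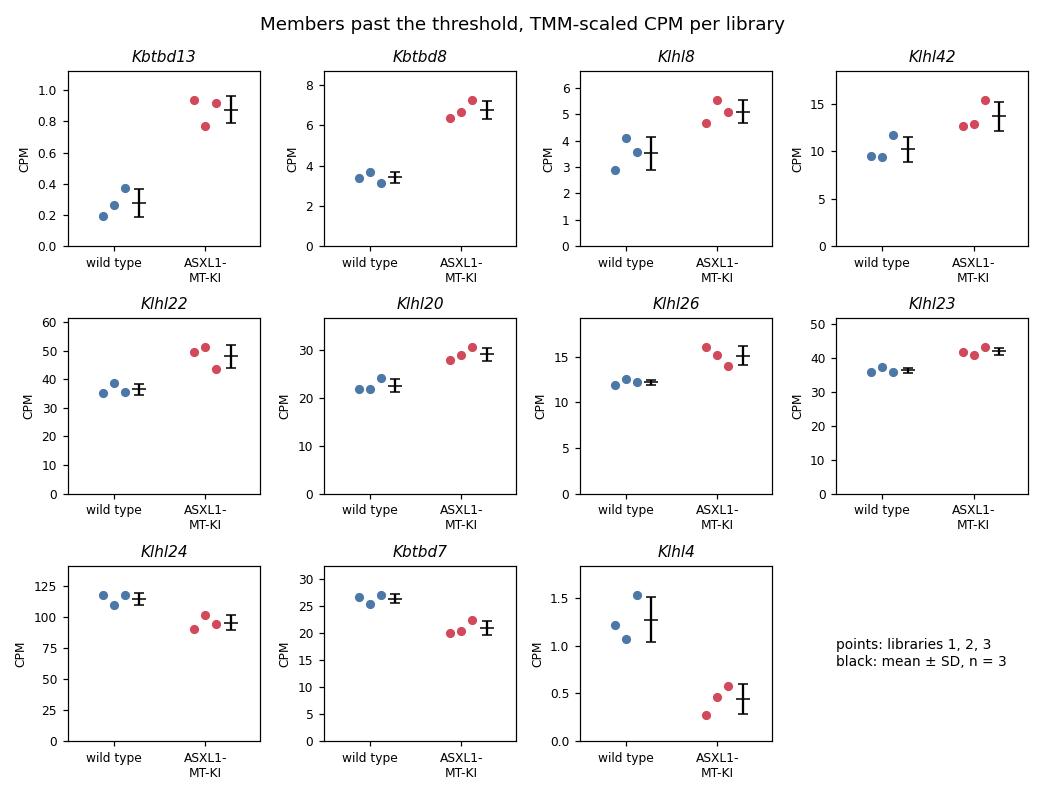
TMM-scaled CPM of the 11 members past the threshold in each library, on linear axes from 0, with the mean and SD of 3 libraries in black. In each panel the 3 wild type points (blue) and the 3 knock-in points (red) do not overlap.

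Falls among well expressed members were small. Klhl24, known from skin, where it regulates keratin 14, lies on chromosome 16 (20097542 to 20129221) and had more counts in wild type than any other member: 5417, 5038 and 4797 in wild type and 4335, 4613 and 3924 in knock-in. Every knock-in library was lower than every wild type library in CPM (90.3 to 102 against 110 to 118). The log2 fold change was -0.27 ± 0.059 (adjusted p = 0.0144), and the call was lost without wild type replicate 1 or knock-in replicate 1, with adjusted p up to 0.065. Kbtbd7 was at 26.7, 25.5 and 27.1 CPM in wild type and at 20.0, 20.5 and 22.5 CPM in knock-in (log2 fold change -0.33 ± 0.071, adjusted p = 0.0132). Its call was lost without wild type replicate 1 or knock-in replicate 1 or 2, with adjusted p up to 0.0573.

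Kbtbd6, the neighbour that shares the sequence shown above, was at 2.92, 3.66 and 3.55 CPM in wild type and at 4.04, 3.98 and 4.72 CPM in knock-in, with no overlap, but did not pass (log2 fold change 0.33 ± 0.15, adjusted p = 0.162). The paralogs thus stood on opposite sides. Kbtbd6 had 0.109, 0.144 and 0.131 counts per Kbtbd7 count in wild type and 0.203, 0.194 and 0.210 in knock-in. The ratio was formed after both genes were seen not to overlap between genotypes, in opposite directions, so its separation is a description. Reads in the shared run may have been counted to either gene, and their part in these values was not tested.

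**Figure D4:**
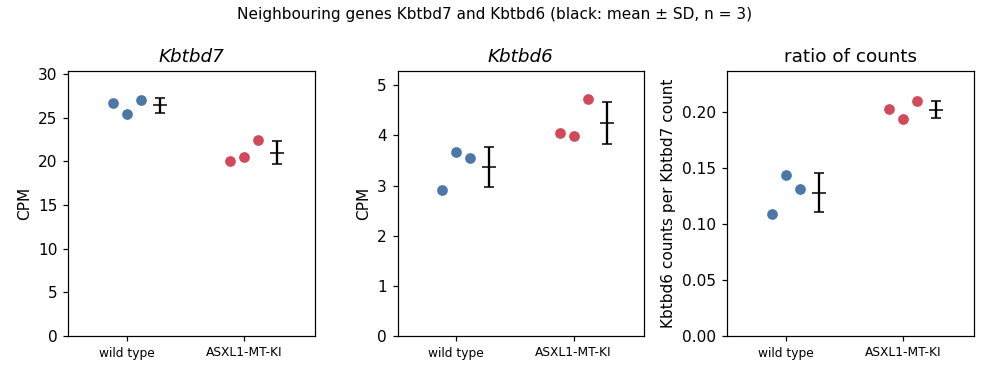
CPM of Kbtbd7 and Kbtbd6 and the ratio of their counts in each library, on linear axes from 0, with the mean and SD of 3 libraries in black. Kbtbd7 is lower and Kbtbd6 higher in the 3 knock-in libraries, and the ratio goes from 0.128 ± 0.0174 to 0.202 ± 0.00817.

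A further 7 members passed with the replicate number as a block but not without it. Klhl3, which controls WNK kinases and salt handling in the kidney, was at 5.20 ± 0.656 CPM in wild type and 6.77 ± 0.54 CPM in knock-in (a log2 difference of 0.38; adjusted p = 0.0777, with the block 0.014). Klhl36 was at 11.2 ± 1.23 and 13.9 ± 0.531 CPM (0.31; 0.0569, with the block 0.00845) and passed also with total counts (0.0422), in DESeq2 (0.0469) and with numbers 1 and 2 only (0.0254). Klhl12, which modifies the COPII coat protein Sec31a, was at 32.2, 36.1 and 25.5 CPM in wild type and at 38.4, 36.3 and 35.1 CPM in knock-in. These ranges overlapped, and wild type library 3 was the lowest (a log2 difference of 0.23, adjusted p = 0.22, with the block 0.0388). Klhl15, an X-linked adaptor for a regulatory subunit of the phosphatase PP2A, was at 8.81 ± 0.389 and 7.01 ± 0.441 CPM (-0.33; 0.0516, with the block 0.0166). It passed narrowly with DESeq2 size factors and in DESeq2 (0.0497).

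Klhl6, the member highest per length, was at 85.9, 88.1 and 90.7 CPM in wild type and at 77.7, 76.7 and 83.9 CPM in knock-in. No knock-in library reached the wild type range, but the member did not pass (log2 fold change -0.15 ± 0.054; adjusted p = 0.0867; with the block 0.0147, and with numbers 1 and 2 only 0.0472). Of the B lymphoid markers beside it, Vpreb1, Cd79a and Igll1 fell (log2 fold changes of -1.24, -1.04 and -1.08), Cd79b was at 0.21 (adjusted p = 0.112), Pax5 had at most 13 counts and Ms4a1 at most 2, and the part of B lineage transcripts in the Klhl6 value was not tested. Klhl21 was at 46.5, 49.8 and 50.2 CPM in wild type and at 42.8, 45.5 and 44.5 CPM in knock-in (-0.14, adjusted p = 0.128, with the block 0.0484). Kbtbd11 was at 10.3 ± 2.07 and 8.43 ± 1 CPM, higher in number 3 of both genotypes (-0.29; 0.235, with the block 0.0328).

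The remaining 18 tested members passed neither way. They include strongly expressed adaptors with narrow intervals. Klhl9 was at 93.4, 95.7 and 91.5 CPM in wild type and 87.7, 93.1 and 96.4 CPM in knock-in (a log2 fold change of -0.02 ± 0.052). Klhl5 was at 93.8, 98.6 and 108 CPM in wild type and 101, 107 and 107 CPM in knock-in (0.07 ± 0.062). Kbtbd2 was at 69.0, 65.7 and 70.4 and at 62.9, 67.4 and 60.6 CPM (-0.10 ± 0.057). Klhl2, the close relative of Klhl3, was at 29.1 ± 2.41 and 27.5 ± 2.11 CPM (-0.09), Klhl18, an adaptor for Aurora A, at 31.1 ± 2.58 and 32.6 ± 1.56 CPM (0.07), and Klhl17, known as actinfilin, at 39.6 ± 5.40 and 41.9 ± 1.71 CPM (0.08). Kbtbd4, which acts on the CoREST corepressor complex, was at 25.5 ± 1.78 and 27.6 ± 0.909 CPM (0.11). Of its exon bases 52.8% also belong to Ptpmt1 on the opposite strand, and the library kit does not mark strand, so its counts may include reads of that gene. The same limit touches Kbtbd11 (24.8% of exon bases shared with Gm37844), Klhl21 (20.5%, Gm9768), Klhl9 (15.8%, Gm26566) and Kbtbd2 (5.46%, Gm10209), all on the opposite strand. None of the 11 members that passed shared exon bases with another annotated gene.

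Klhl7 was at 28.7 ± 2.13 and 30.9 ± 1.96 CPM (0.11), Klhl11 at 16.9 ± 2.26 and 17.6 ± 0.591 (0.06), Klhl25, an adaptor for the translation inhibitor 4E-BP1, at 14.0 ± 1.46 and 15.1 ± 0.449 (0.10), Klhl28 at 8.26 ± 0.57 and 7.80 ± 0.0587 (-0.08), and Kbtbd3 at 2.92 ± 0.461 and 3.31 ± 0.296 (0.18). The other members, with under 2 CPM, were too thinly counted to show a small change: Klhl35 had 40 to 63 counts a library (0.03 ± 0.28), Klhl30 10 to 20 (-0.16 ± 0.35), Kbtbd12 8 to 18 (0.58 ± 0.35), Klhl10, a testis gene, 5 to 15 (-0.09 ± 0.45) and Klhl13 3 to 14 (0.84 ± 0.52).

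The ligase that these adaptors serve was read from lists of related genes. Cul3 itself, on chromosome 1 (80264923 to 80340480), was at 212, 201 and 188 CPM in wild type and at 181, 170 and 174 CPM in knock-in. No knock-in library reached the wild type range, and Cul3 passed as a small fall (log2 fold change -0.20 ± 0.054, adjusted p = 0.038). The call was lost on leaving out any library but wild type replicate 3, with adjusted p up to 0.147, and with total counts. Rbx1 was at 69.9, 72.4 and 66.6 and at 69.1, 67.1 and 67.6 CPM, with overlap (-0.04 ± 0.051, adjusted p = 0.696). Senp8, the protease that matures Nedd8 and removes it from proteins other than cullins, rose from 2.76 ± 0.224 to 4.42 ± 0.308 CPM (0.68 ± 0.14, adjusted p = 0.00985), and passed with each library left out. Of the 16 genes of the core and neddylation list these were the only ones that passed (12.5%, against 16.0% of all genes), with a median of -0.01 beside 0.00 over all genes. With the block 5 passed, 3 rises and 2 falls, where 30.5% of all genes passed. Dcun1d2, a promoter of cullin neddylation (0.25, adjusted p = 0.0724), and Arih1, a ligase that works with neddylated cullins (-0.13, adjusted p = 0.0785), were next by p.

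In the COP9 signalosome 0 of 9 tested subunits passed in edgeR, DESeq2 and limma-voom, 3 had an unadjusted p under 0.05, and the median was -0.04. Over all genes 16.0% passed in edgeR, 17.6% in DESeq2 and 16.0% in limma-voom, and 30.4% had an unadjusted p under 0.05, so 3 of 9 is near the background. The 4 with the lowest p were Cops7b (0.19, adjusted p = 0.0637), Cops4 (-0.14, 0.102), Cops8 (-0.12, 0.143) and Cops3 (-0.12, 0.182). With the block, where 30.5% of all genes passed, Cops7b rose and Cops4 fell.

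Among 5 tested members of the same protein family under other symbols 1 passed, beside 16.0% of all genes. Enc1, an actin-binding relative, rose from 7.38 ± 1.08 to 10.5 ± 0.827 CPM (0.51 ± 0.13, adjusted p = 0.0233), a call lost without either of wild type replicates 1 and 2 or knock-in replicates 2 and 3 (adjusted p up to 0.0793). Keap1 was at 95.2, 97.7 and 94.5 and at 105, 104 and 99.4 CPM, without overlap (0.10 ± 0.047, adjusted p = 0.191). It passed with total counts. Ipp (0.20, adjusted p = 0.121) and Ivns1abp (-0.10, adjusted p = 0.31) were next by p, and the median of the 5 was 0.10.

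Of 27 other BTB adaptors of cullin-3 tested, 4 rose and 2 fell (22.2%, against 16.0% of all genes, 8.29% up and 7.69% down), with a median of 0.00. Kctd7, mutated in a progressive myoclonic epilepsy, rose from 13.5 ± 1 to 19.3 ± 0.878 CPM (0.51 ± 0.082, adjusted p = 0.00327) and passed with each library left out. Spopl, a paralog of Spop, rose by 0.36 ± 0.089 and Btbd3 by 0.36 ± 0.092, while Btbd9 fell by 0.21 on the log2 scale. The 6 calls became 1 without knock-in replicate 2 or 3 (8.30% and 12.5% of all genes), and 2 without knock-in replicate 1 (10.1%) or wild type replicate 1 or 2 (8.25% and 13.3%); the falls did not pass with total counts.

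Transcripts of reported substrates were read from a further list. Of 23 tested, 1 passed in edgeR (4.35%, against 16.0% of all genes) and the median was 0.04: Sec31a, the substrate of Klhl12, fell from 258 ± 4.22 to 233 ± 1.74 CPM (-0.15 ± 0.042, adjusted p = 0.0407). That call was lost on leaving out any library but wild type replicate 3 (adjusted p up to 0.151), with total counts and with no filter on low counts. Next by p were Tiam1, the substrate of Kbtbd6 and Kbtbd7 (0.18, adjusted p = 0.0744), Nfe2l2, which encodes Nrf2 (0.20, 0.0837), and Dapk1, the substrate of Klhl20 (0.19, 0.0921). With the block 8 of the 23 passed, 5 rises and 3 falls, a share near the 30.5% of all genes that passed with it; these 3 genes were among the rises. Adaptors act on the protein, which was not measured.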

How the data were processed

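Per the labels' protocols, 200 ng RNA went into each library, made with a NEBNext Ultra kit and read as paired ends of 124 bp. HISAT2 2.0.4 is listed as a tool and mm10 as the build, per the submitters' processing notes. No source used here gives the counting tool, its annotation or its use of strand. The authors deposited raw counts per gene symbol, not normalized, with a column for each library; columns were matched to samples by genotype and number. Of 24421 rows 6240 were 0 throughout.

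Genotypes were compared with edgeR 4.0.16 in R 4.3.3: filterByExpr (minimum count 10), TMM scaling (factors 0.972 to 1.03) and robust quasi-likelihood tests of genotype alone. P-values were adjusted over 13548 genes (Benjamini-Hochberg) and called under 0.05. TMM-scaled CPM are printed. SE is the log2 fold change divided by the square root of F. Where no source says that libraries came from separate animals, p-values measure the spread between these libraries. On simulated counts, the test recovered 67.2% of changes of 1.5-fold, 86.6% at 2-fold and 93.9% at 4-fold among 13425 genes, and 10 of 175 calls were false. The simulation changed 67, 67 and 66 genes at these folds and drew each library independently. In the data 16.0% of genes passed and deviations of same-numbered libraries were correlated, so these rates need not hold for the data.

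Pairing was checked through deviations from each genotype's mean. Libraries of the same number had correlations of 0.307, 0.217 and 0.472, above the set minimum of 0.1. For wild type 2 with ASXL1-MT-KI 1, which differ in number, the value was 0.179. The numbers come from the sample titles, and these correlations alone do not establish that they pair the libraries. The main test has no block, and the fit with the replicate number as a block is given beside it.

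Positions and exon lengths are those of GENCODE M21 (GRCm38, the assembly of mm10), matched for 45 members; promoter windows, matched for 38, and Klhl17 are from RefSeq GRCm38.p6. Members are named when tested, with values for every library for those past the threshold and the 5 highest per kb; other lists are named by the 4 lowest p. The members and lists were chosen with earlier results of these data known. The alternatives tried were total counts, DESeq2 size factors, the replicate block, DESeq2 1.42.0, limma-voom 3.58.1, no filter, CPM 1 in 3 libraries, an adjusted p under 0.10, each library left out and, added after seeing the data, numbers 1 and 2 only. Figures were drawn with matplotlib 3.10.9.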

Additional observations from a re-analysis of the deposited data

How the results depend on the processing

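No member that passed changed direction under any alternative run. The replicate block raised the counts of calls from 2165 to 4132 of all genes, from 11 to 18 of the members, from 2 to 5 in the cullin-3 core list, from 0 to 2 in the COP9 signalosome and from 1 to 8 among substrates. It ended no call of a member. Total counts gave 1 call in the COP9 signalosome, 2 among family genes under other symbols and 4 among substrates, and raised the share of rises among all calls from 51.9% to 67.1%. An adjusted p under 0.10 gave 5 calls in the core list, 1 in the COP9 signalosome and 4 among substrates; no filter gave 0 and numbers 1 and 2 only gave 3 among substrates. On leaving out 1 library, calls ran from 1128 to 2257 for all genes, 5 to 11 for members, 1 to 2 for the core, 0 to 1 for COP9, 0 to 1 for other family symbols, 1 to 5 for other BTB adaptors and 0 to 2 for substrates. With the longest transcript as the length, the median wild type level of members was 4.12 in place of 2.75 CPM per kb. No median over all genes was taken with that length, so 4.12 cannot be set against the 5.98 given for exon union. Directions reversed only in genes that did not pass: Klhl9 (0.03) and Rbx1 (0.02) with total counts and Klhl10 (0.25) with numbers 1 and 2 only. On leaving out 1 library Klhl9 ran from -0.05 to 0.01, Klhl10 from -0.55 to 0.16, Klhl11 from -0.03 to 0.16, Klhl30 from -0.30 to 0.15 and Klhl35 from -0.11 to 0.29. Members with few counts in every library (Klhl4, Klhl10, Klhl13, Klhl30, Klhl35, Kbtbd12 and Kbtbd13) are limited by depth.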
